A study of Drosophila melanogaster with 2 samples.

Results

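The 5 GATA transcription factor genes of *Drosophila melanogaster*, pnr, srp, grn, GATAd and GATAe, and ush, the gene of their shared cofactor, were examined for contacts of the fusion protein CG11696-eGFP. They were taken by name from the gene annotation and are 6 of 13968 protein-coding genes of the 7 assembled chromosomes and arms. A locus was the gene body with 10 kb on either side, and every peak whose summit fell in it was counted, in the lists of both replicates together and of each alone. The data are ChIP-seq peak lists from transgenic flies that carry an insertion for CG11696, a predicted zinc finger protein, fused to enhanced green fluorescent protein. Whole embryos aged 0 to 24 h formed 1 group of 2 biological replicates, with no second genotype or treatment. The antibody label names CG11696, while the description of the experiment gives an antibody against GFP. The labels do not say what drives the fusion or whether the native protein was present.

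GATA factors are zinc finger proteins that bind DNA at sites with the core GATA. Pannier, the product of pnr, patterns the dorsal ectoderm and the heart, and Serpent, the product of srp, specifies the fat body, the blood cells and the endoderm. U-shaped, the product of ush, belongs to the Friend of GATA family: it binds Pannier and Serpent and alters their activity as regulators of transcription.

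The fusion protein had reproducible peaks at 2 of the 6 loci, ush and GATAd, and none at srp, GATAe, pnr or grn. Across all protein-coding genes 46.3% had at least 1 such summit at their locus, a share that 2 of 6 does not exceed. The median locus of protein-coding genes was 22.2 kb, and the member loci were 25.5 to 84.3 kb, so these shares are not matched for length. The ush locus held 9 summits, a number that 0.122% of all genes reached, and 2.22% of genes with a locus of similar length. The GATAd locus held 2, including 1 of high signal in the first intron. These counts come from the conservative list, the authors' list of peaks that pass a threshold on the irreproducible discovery rate (IDR) of 0.01 between peak sets. Pooled signal values are the authors' measure of peak strength over both replicates in units of their peak caller, and replicate values come from each replicate's own list, on another scale.

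The sequences below show 6 of the summits, 50 bases to either side, from the RefSeq copy of dm6 (Release 6), plus strand, 5′ to 3′. The summits at 10335011 (GATAd) and 485870 (ush) are shown as the strongest conservative ones of their loci. The other 4 were chosen after the values were seen: 3 hold a GATA consensus outside UTRs, and the one at 481103 is the strongest peak of the ush locus, which is not in the thresholded list. Capitals mark the GATA consensus, which is GATA with A or T before it and A or G after it, on either strand. A match on the minus strand appears reverse-complemented, as TTATCT does at GATAd.
GATAd, summit 10335011, chr2L:10334961-10335061: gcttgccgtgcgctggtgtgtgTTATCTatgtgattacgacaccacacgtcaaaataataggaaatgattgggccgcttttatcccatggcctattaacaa
ush, summit 470662, chr2L:470612-470712: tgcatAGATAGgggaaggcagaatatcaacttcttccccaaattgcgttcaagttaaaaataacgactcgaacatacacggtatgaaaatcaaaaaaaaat
ush, summit 513162, chr2L:513112-513212: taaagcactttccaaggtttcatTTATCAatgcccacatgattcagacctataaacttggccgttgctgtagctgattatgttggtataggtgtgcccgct
ush, summit 520837, chr2L:520787-520887: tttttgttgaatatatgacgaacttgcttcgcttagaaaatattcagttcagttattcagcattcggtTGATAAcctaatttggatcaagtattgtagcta
ush, summit 485870, chr2L:485820-485920: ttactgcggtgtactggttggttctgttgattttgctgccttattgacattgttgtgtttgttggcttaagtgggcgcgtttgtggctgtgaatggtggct
ush, summit 481103, chr2L:481053-481153: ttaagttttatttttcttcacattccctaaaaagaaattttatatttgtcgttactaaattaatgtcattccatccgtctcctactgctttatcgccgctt
The windows at 485870 and 481103 hold no match.

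Of the 5 factor genes, GATAd, whose protein is among the less studied of the family, was the one with a conservative summit in its own body. Its locus spans 25.5 kb around 2L 10333734 to 10339185 (FBgn0032223, plus strand). The stronger peak lay in intron 1 with its summit at 10335011, 1097 bp from a GATAd start. Its pooled signal value was 558, and the replicates gave 258 and 296 (277 ± 26.9, SD, n = 2). It ranked 107 in the ranked list and stood at 5.22 times 107, the median of the 3143 conservative peaks. The second summit, at 10339358, lay past the end of GATAd and 99 bp from the start of SamDC, which encodes a decarboxylase of polyamine synthesis. Its pooled value was 276, with 126 and 163 in the replicates (145 ± 26.6, n = 2). Both peaks were in the thresholded list of each replicate. At the GATAd start itself a peak 3 bp away stayed below the threshold, with a pooled value of 43.3 and replicate values of 25.5 and 18.2 (21.8 ± 5.17, n = 2). The strong GATAd peak was thus in the first intron and not within 500 bp of a start.

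Serpent, GATAe and Pannier are encoded side by side on 3R, with 5019 bases between srp and GATAe and 6945 between GATAe and pnr. They lie at 15986152 to 16004085 (srp, FBgn0003507), 16009105 to 16019133 (GATAe, FBgn0038391) and 16026079 to 16041796 (pnr, FBgn0003117), all on the plus strand. GATAe acts after srp in the differentiation of the endoderm. The loci of these genes overlap, so they share summits and are best read as 1 stretch of 75.6 kb (3R 15976152 to 16051796). None of its 66 ranked peaks passed, where 2.18 were expected at the share of 3.3% over the 7 chromosomes. A count of 0 of 66 allows a share of up to 4.55% (3 counts of the total), so a share equal to that of the genome was not excluded by counting. The replicates ranked 33 and 81 peaks there, and none of these passed in its own list. The nearest conservative summits were 37901 to 46408 bp from the starts of pnr, 60213 to 63382 bp from those of GATAe and 73398 to 86335 bp from those of srp.

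The strongest of the sub-threshold peaks in this stretch, with a pooled value of 61.0, was not next to a GATA gene: it lay 375 bp from the start of msps, which encodes a microtubule polymerase, and gave 28.1 and 35.7 in the replicates (31.9 ± 5.35, n = 2). Its IDR of 0.0151 was just outside the threshold of 0.01. Near srp the strongest was 1563 bp from a start, with a pooled value of 52.2, an IDR of 0.0539 and a peak in replicate 2 alone, at 29.1. It held a GATA consensus within 50 bp, while the peaks named here at msps, at GATAe and inside pnr held none. At GATAe the strongest was 447 bp from a start (47.5, IDR 0.568), with 31.7 and 18.4 in the replicates (25.1 ± 9.46, n = 2). Inside the pnr gene the highest value was 42.3 (IDR 0.773), again with a peak in replicate 2 alone, at 32.7. The sub-threshold peaks had median pooled values of 19.9 at pnr, 25.7 at srp and 21.5 at GATAe, and 1.27% of all sub-threshold peaks reached the value of the msps peak. Just outside the srp locus, 1749 and 2425 bp from its edge, 2 peaks of pooled values 111 and 69.8 passed the threshold in the ranked list but were absent from the thresholded list.

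The gene grn, which guides motor axons and shapes the posterior spiracles, lies apart from that cluster (FBgn0001138, 3R 8147368 to 8181444, minus strand). None of the 43 ranked peaks of its 54.1 kb locus passed, against 1.42 expected, and a count of 0 allows a share of up to 6.98% by the same rule of 3 counts. The replicates ranked 27 and 66 peaks there, none of them past the threshold. Its strongest peak was in an intron 1388 bp from the single annotated start, with a pooled value of 58.7, an IDR of 0.109 and a peak in replicate 2 alone, at 31.9. The nearest conservative summit was 31404 bp from that start.

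**Figure D1:**
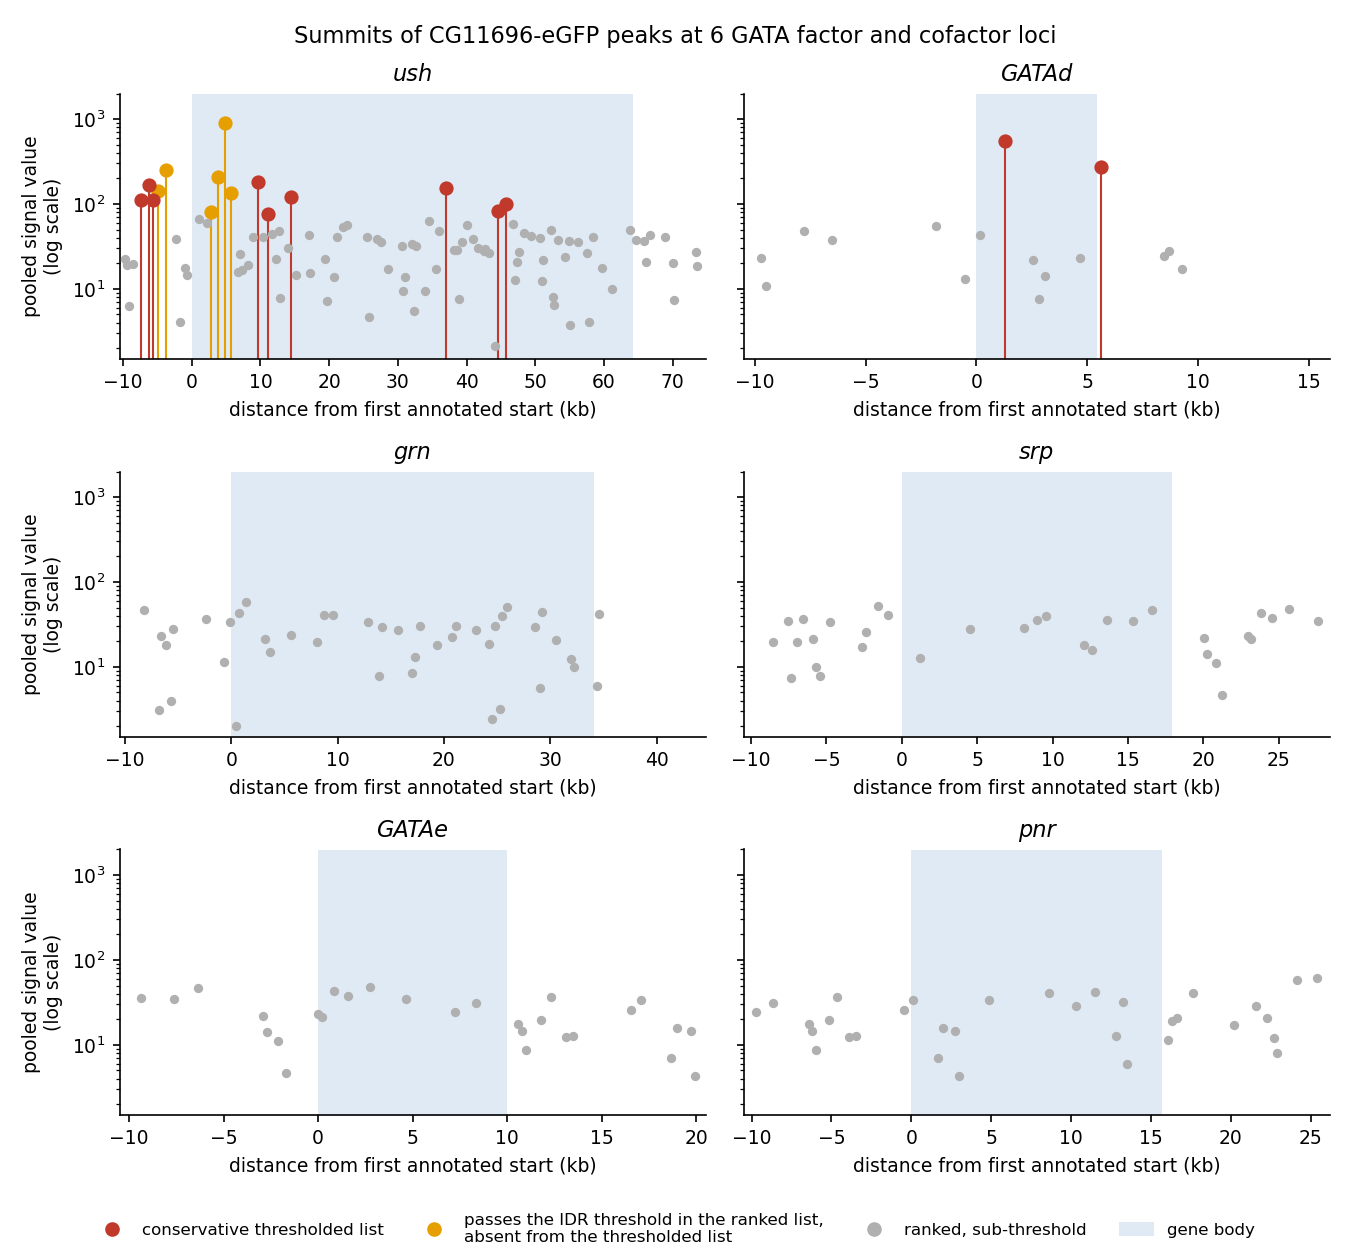
Summits by distance from the first annotated start of each gene (kb, along its strand) and pooled signal value (log scale). The 9 conservative summits of ush and the 2 of GATAd stand above the sub-threshold peaks in grey, 6 passing peaks absent from the thresholded list lie at the left of ush, and the 4 other loci hold grey points only.

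The cofactor gene ush held most of the summits. It is the longest of the 6 genes (FBgn0003963, 2L 476220 to 540560, plus strand), and its locus of 84.3 kb had 9 conservative summits, or 10.7 per 100 kb, against 7.86 at GATAd. Of all genes, 9 had more and 17 had at least as many (0.122%). Among 225 genes with a locus of 0.8 to 1.25 times the length of that of ush, a range chosen after seeing the data, 5 had at least as many (2.22%), and their median was 1 summit. A long locus has more places where a peak can be called, so the number was also set against the ranked peaks: 9 of 97 passed (9.28%, 95% Wilson interval 4.96 to 16.7), against 3.2 expected. That was 2.81 times the genome's share (two-sided exact binomial p = 0.0049). After Benjamini-Hochberg adjustment over 13723 genes it did not pass the threshold of 0.05 (exact binomial adjusted p = 0.238). Set against bases instead of ranked peaks, it did (4.67 times, exact binomial adjusted p = 0.0237), and that setting called 166 of 13968 genes higher. Against ranked peaks ush was not called with the optimal list, without replicate 1 or with 5 kb to either side (exact binomial adjusted p = 0.0684, 0.32 and 0.887). Nor was it called without replicate 2 or with the gene body alone. The 97 ranked peaks leave out 6 passing peaks that are absent from the thresholded list. With all such peaks added back ush was called higher (exact binomial adjusted p = 0.00425), as described below. At GATAd 2 of 16 passed (12.5%, Wilson interval 3.5 to 36.0), 3.78 times the genome's share (exact binomial p = 0.0964, adjusted p = 0.886). The 4 loci without a summit had exact binomial p from 0.405 to 1.0 and adjusted p of 1.0. No lower count is possible at those 4 loci, so with 0.925 to 1.42 summits expected the test could not have called them lower. Against the ranked peaks of the conservative list no member was thus called in either direction, where 0.277% of genes were called higher (38 genes) and 0.00729% lower (1 gene). Loci of neighbouring genes share summits, so genes are not independent in this test.

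**Figure D2:**
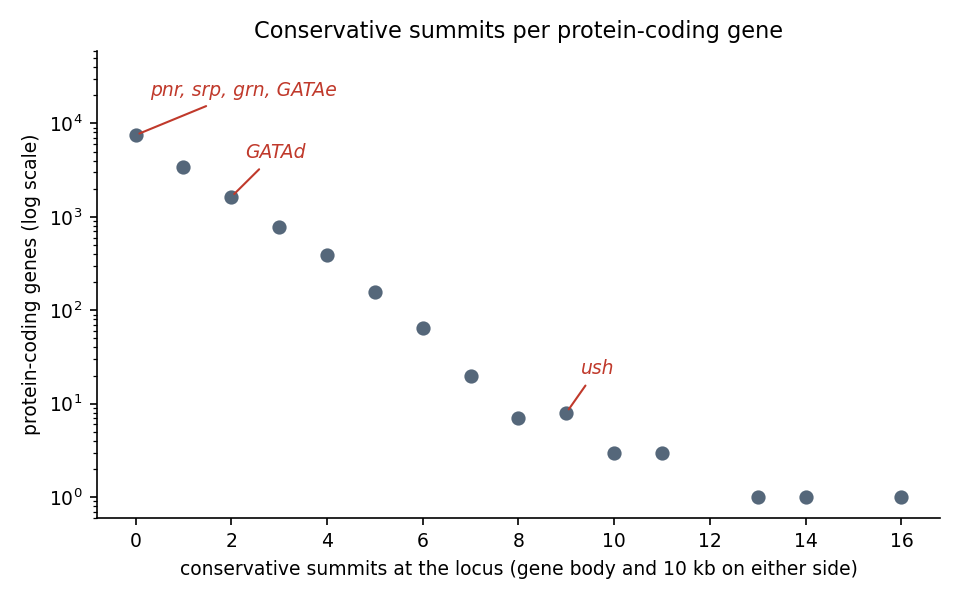
Number of protein-coding genes (log scale) by the number of conservative summits at the locus. Of all genes 7500 had no summit, as had pnr, srp, grn and GATAe, 1634 had 2, as had GATAd, and 8 had 9, as had ush.

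The conservative summits of ush fell in 3 groups along the locus. Upstream of the first ush start, beyond the gene MED15 and in introns of CG4297, were summits at 468897, 470048 and 470662. Their pooled values were 111, 169 and 112. The replicates gave 46.3 and 70.0 at the first of them (58.2 ± 16.8), 85.8 and 83.6 at the next (84.7 ± 1.56) and 53.0 and 61.8 at the last (57.4 ± 6.19, SD, n = 2 each). All of them were in both replicate lists.

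The middle group lay before and at an internal start of ush, at 490835. The summit at 485870 in intron 1 was the strongest conservative peak of the locus, with a pooled value of 181, replicate values of 94.7 and 69.1 (81.9 ± 18.1, n = 2) and rank 731 of the list. The summit at 487288 was the weakest of the 9, with 76.0 pooled, 39.2 and 35.5 in the replicates (37.4 ± 2.62, n = 2), and was in neither replicate's thresholded list. The summit at 490732 was 103 bp from the internal start, which the noncoding RNA gene lncRNA:CR46258 shares. It had 120.2 pooled and 71.6 and 49.7 in the replicates (60.7 ± 15.5, n = 2), and was in the thresholded list of replicate 1 alone. This was the only promoter summit among the 6 genes, 1 of 6 against 10.1% of all genes, and with the list of replicate 2 there was none.

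The last group lay in the long intron before the starts at 523466 and 523736. At 513162 the pooled value was 156, with 64.7 and 75.2 in the replicates (70.0 ± 7.44, n = 2), and the peak was in both lists. At 520837 it was 82.4, with 43.7 and 40.5 (42.1 ± 2.27, n = 2), and the peak was in neither list. At 522037 it was 0.942 times the list median, and the replicates differed most there, with 30.7 and 67.5 (49.1 ± 26.0, n = 2) and a peak in the list of replicate 2 alone. Neighbouring ush summits were a median of 2431 bp apart (614 to 22430 bp), against 13869 bp over all conservative summits. Short distances follow from 9 summits in a span of 53.1 kb, so they restate the count and are not separate evidence of grouping.

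Between the upstream and middle groups of ush summits, peaks that pass are missing from the thresholded lists. The ranked conservative list holds 6 more peaks at or above the threshold between 2L 471364 and 481943, a stretch of 10.6 kb in which none of the 4 thresholded lists has a peak. They are 6 of 84 such peaks on the 7 chromosomes, and the ranked lists of the replicates have 7 and 6 passing peaks at ush that are absent in the same way. The deposited descriptions name an additional source for the thresholded lists without saying what it is, and why these peaks are absent was not tested. The highest peak of the whole ush locus is among them. Its summit at 481103, in intron 1, had a pooled value of 894, rank 35 of the ranked list, and 476 and 481 in the replicates (478 ± 3.47, n = 2). The nearest start, 1415 bp away, was that of the gene cbt, and the nearest ush start was 4883 bp away.

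The other absent peaks were likewise nearest to starts of CG4297 or cbt. The gene cbt, which encodes a zinc finger transcription factor that acts in dorsal closure, is nested in ush on the opposite strand (2L 476446 to 479688). At 480070, 382 bp from the cbt start, the pooled value was 208, with 125 and 92.1 in the replicates (108 ± 23.1, n = 2). In the cbt 5' UTR, at 479083, it was 81.5, with 67.0 and 36.5 (51.8 ± 21.6, n = 2). The peaks at 471364 and 472453, 191 and 253 bp from starts of CG4297, had pooled values of 144 and of 2.34 times the list median. The replicates gave 50.4 and 94.4 at the first (72.4 ± 31.1) and 114 in each at the next (114 ± 0.292, n = 2 each). The last, at 481943 in ush intron 1, had 133 pooled and 70.6 and 64.9 in the replicates (67.7 ± 4.03, n = 2). With all 84 such peaks added back to the list, 15 of 103 ranked peaks passed at ush, against 3.49 expected. That was 4.3 times the genome's share, and ush was called higher (exact binomial adjusted p = 0.00425). It was 1 of 45 genes called higher in that setting, of 13727 tested, and 1 gene was called lower. The added peaks include those beside CG4297 and cbt, so the call is one of the locus and not of ush alone.

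**Figure D3:**
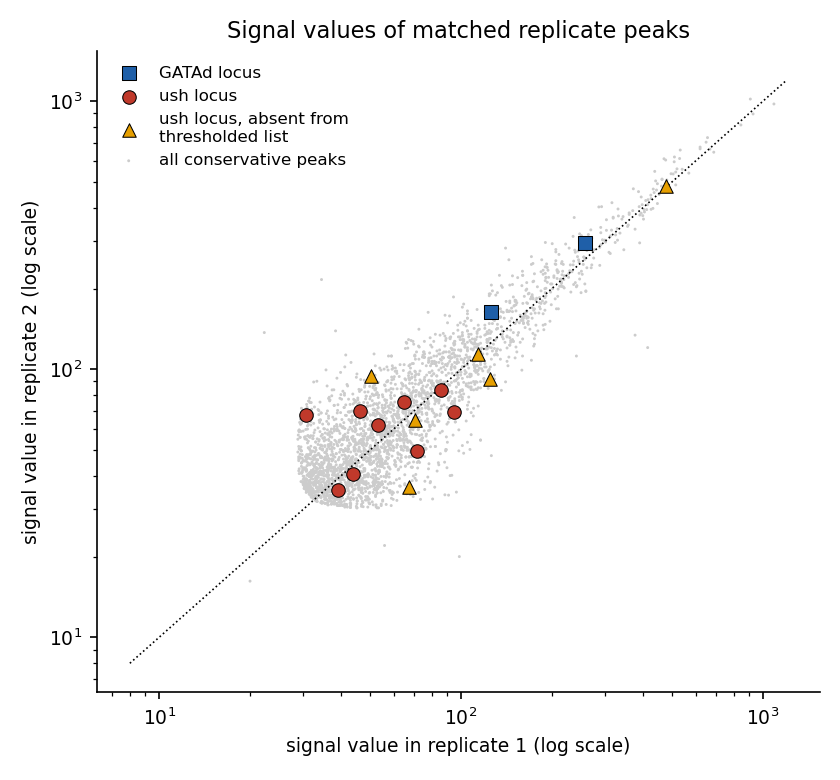
Signal values of replicate 2 against replicate 1 (log scales) for the conservative peaks of GATAd and ush, the 6 absent peaks of ush and all conservative peaks, with the line of equal values. The GATAd peaks and the absent ush peak at 476 and 481 lie in the upper range, and most ush peaks lie among the many peaks of lower value.

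The replicates agreed at GATAd and in part at ush. Of the 11 member summits 7 belonged to peaks found in both replicates' thresholded lists, against 51.2% of all conservative peaks. By locus these were 2 of 2 at GATAd and 5 of 9 at ush. Each replicate's own list had 2 thresholded summits at GATAd and 6 at ush, and none at the other 4 genes, so 2 of 6 genes had a summit in either list, against 38.3% of all genes in replicate 1 and 38.8% in replicate 2. The log2 ratio of replicate 2 to replicate 1 had a median of 0.20 over the 11 summits (SD 0.47), against 0.09 over 3116 conservative peaks with both values (SD 0.42). The median pooled value of the 11 was 120.2 (76.0 to 558), and 8 of them were above the list median of 107.

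Most of these summits lay within introns. Of the 11, 9 were intronic (81.8%) and 2 within 500 bp of a transcription start (18.2%), against 41.7% and 41.1% of all conservative summits. None fell in the other classes, which apply only to summits farther from a start. The summit near SamDC, counted by its start, lies between that gene and GATAd. Of the intronic ones 3 are in CG4297, not in ush. Most of the 11 come from the ush locus, where sub-threshold peaks were also mostly intronic (72.7%, with 13.6% within 500 bp of a start). The conservative summits of that locus had 88.9% and 11.1%. Whether the makeup of the locus sets the shares above was not tested. Whole embryos mix all tissues, so contacts in few cells and weak contacts in many cannot be told apart.

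The GATA consensus stood within 50 bp of 5 of the 11 member summits, 4 at ush and 1 at GATAd (45.5%, 95% Wilson interval 21.3 to 72.0), against 21.5% of all conservative summits (20.1 to 23.0). The interval of so few windows includes the share of all summits. With 25 bp to either side the share was 18.2% of the member windows, against 10.8% of all. Over all summits the consensus was more frequent than in windows 300 bp to the left and right (16.9% and 17.0%) and than at sub-threshold summits (14.5%). Base composition differed between these sets too: G and C made up 40.3% of the member windows, against 35.5% of all conservative windows. It made up 43.0% and 43.1% of the windows 300 bp away and 45.0% of those at sub-threshold summits.

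The same letters in another order, GTAA between the same neighbours on either strand, were in 2 of the 11 member windows and in 29.8% of all summit windows, against 19.1% and 19.0% 300 bp away. In a count of all 12 orders of the core letters, added after seeing the data, the GATA order ranked 11 by the ratio of summit to flanking windows (1.27, where the orders ran from 1.19 to 1.75). Among windows of at most 33.7% G and C, also added afterwards, the GATA consensus was in 25.3% of summit windows (23.2 to 27.5) and 26.0% of flanking ones (23.6 to 28.5). The other order was in 36.4% (34.1 to 38.8) and 31.1% (28.5 to 33.7). Over whole loci, the consensus had 2.49 matches per kb at ush and 2.79 at GATAd, against 1.79 at pnr, 2.13 at grn, 2.3 at GATAe and 2.4 at srp, and 1.96 over the 7 chromosomes. The 2 loci with summits had the highest densities, and that of srp, with no summit, was close below that of ush.

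**Figure D4:**
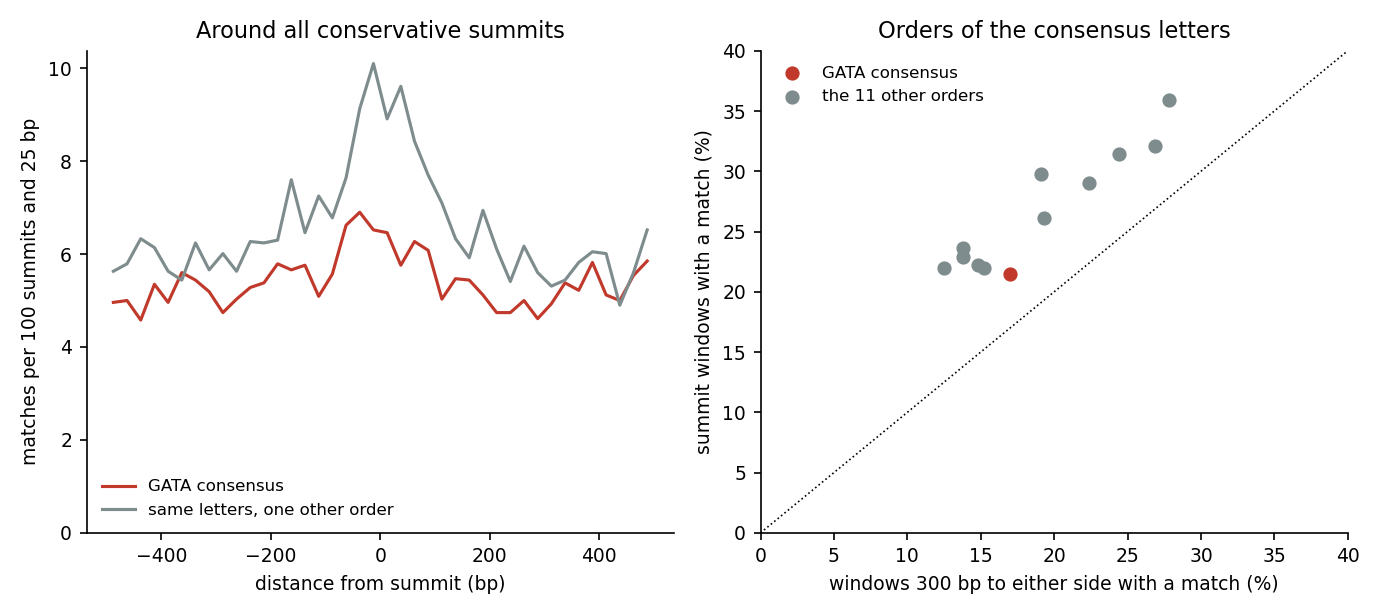
Left, matches per 100 summits and 25 bp by distance from all conservative summits (bp), for the GATA consensus and 1 other order of its letters. Right, percent of summit windows against percent of windows 300 bp to either side with a match, for 12 orders of the letters, with the line of equal shares; the GATA order is at 21.5% against 17.0%, close above the line.

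Other short sequences were counted in the member windows. GAGAG on either strand, the repeat bound by GAGA factor and added after the sequences were seen, was in 2 of 11 windows, against 11.1% of all conservative windows. The window at the internal ush start, which overlaps the 5' UTR of a longer transcript, held 18 overlapping copies and a CT repeat of 15 bases. The DNA replication-related element, which holds the letters GATA after a C, was in none of the 11 windows and in 0.668% of all summit windows.

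Genes known to work with or under the GATA factors were counted in 4 lists. Of 12 partners in blood cells, N, the Notch receptor gene, had a promoter summit (pooled 74.7, replicates 39.9 and 37.1, 38.5 ± 2.04, n = 2), and 6 had a summit at the locus. None of 18 haemocyte and fat body genes had a promoter summit, and 9 had one at the locus, among them Hml, Pxn and the collagen IV genes vkg and Col4a1. The rest of that list had no summit at the locus, among them the genes NimC1, Ppn and Mmp2. At Mmp2 none of 88 ranked peaks passed. Of 9 endoderm and midgut genes 2 had a promoter summit and 4 one at the locus. The promoter peaks were at fkh, a forkhead factor gene (129 pooled, 61.6 ± 17.9, n = 2), and Inx7, an innexin gene (107, 54.8 ± 23.1). Of 16 heart and dorsal tissue genes, tin, which specifies the heart, had a promoter summit (208, 106 ± 18.9, n = 2), and 10 had a summit at the locus. The proneural genes ac and sc, which Pannier regulates, had none. Across all genes 10.1% had a promoter summit and 46.3% a summit at the locus, and no gene of these lists was called in either direction. Even none of 88 at Mmp2 gave an exact binomial adjusted p of 0.995. Genes of these lists without a summit could therefore not have been called lower.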

How the data were processed

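Protein-DNA contacts were measured by ChIP-seq in 2 replicates of whole embryos, with chromatin sonicated to 200 to 800 bp per the labels. The authors deposited ranked and thresholded peak lists on dm6 for each replicate, and conservative and optimal lists for the series, made with a control per the deposited descriptions. The aligner, the peak caller, their settings and the read depths, each not given in the sources used here, could not be taken into account. The deposited signal value of a peak is in units of the caller and was not scaled between lists. The deposited score (at most 1000) is scaled from the IDR, and peaks at 830 or above pass. The authors deposited the IDR as its −log10.

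Summits were assigned with Ensembl release 115 (24111 transcription starts). Each was given to 1 class, starts within 500 bp first, then exons, introns and intergenic bases. Sub-threshold peaks are ranked peaks that do not pass and overlap no thresholded peak. Replicate values are those of the overlapping ranked peak of each replicate with the nearest summit. Per gene, passing peaks among passing and sub-threshold peaks were tested with a two-sided exact binomial test against the share over the 7 chromosomes, with Benjamini-Hochberg adjustment over all genes, and the code was tested on simulated data. Tests and Wilson intervals cover the counting of called peaks only, in these 2 replicates. Python 3.11.15, numpy 2.4.6, pandas 2.3.3, scipy 1.17.1 and matplotlib 3.10.9 were used. Named genes were the members, the genes nearest to their summits, and up to 4 genes of each list with the highest promoter summits. Genes named beyond these, and those beside sub-threshold or absent peaks, were chosen after their values were seen. The members and lists were chosen with earlier results of these data known.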

Additional observations from a re-analysis of the deposited data

Results flagged for a closer look

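The optimal list, which the counts above do not use, held 2 peaks at these loci that the conservative list lacks. At pnr the peak 375 bp from the start of msps had a pooled signal value of 61.0. At ush a peak with its summit at 2L 523002, 464 bp from an internal start, had a pooled signal value of 58.0 and replicate values of 31.3 and 30.7 (31.0 ± 0.426, SD, n = 2). Both were below the conservative list's median of 107, and control samples were not analysed here.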

How the results depend on the processing

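Of 147 recomputed values, 133 kept their direction and side of the threshold, or moved little, 12 counts or shares moved, 2 became stronger, and none reversed or became weaker. Many of the 133 belong to the 4 loci without a summit, which stricter settings could not lower. A fall from 11 to 8 summits was counted as moving little, so this tally is no measure of how stable the values at ush and GATAd are. The 11 summits became 17 with the absent passing peaks added back and 7 with gene bodies alone, and were 8 to 8 in the list of a single replicate. The number of members called was 1 (ush) against 0 with the absent peaks added back and with bases as the background (exact binomial adjusted p = 0.0237), where ush had adjusted p up to 1.0 under other settings. Genes called higher numbered 38, against 175 with the optimal list, 73 without replicate 1, 4 without replicate 2 and 3 with the stronger peaks. They numbered 11 with gene bodies, 20 with 5 kb, 93 with 20 kb, 45 with the absent peaks added back and 166 with bases. Leaving out 1 replicate gave 0 to 1 members with a promoter summit. Overlap with ranked peaks of both replicates held for 11 summits against 7 with thresholded ones. The share of member windows with the GATA consensus was 18.2% with 25 bp to either side (all summits 10.8%), 72.7% with 100 bp (38.1%) and 72.7% for the core GATA alone (51.6%), against 45.5% (21.5%), and matches stood in 2 of 8 and 4 of 8 windows in the lists of single replicates. The cause was not tested. No paired analysis was possible because there is 1 group. The read depth is unknown, so what deeper data would call cannot be judged.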
